A study of Mus musculus with 8 samples.

Results

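Cytosolic sensors of foreign or misplaced nucleic acid, with the adaptors, kinase and transcription factor that carry their signal, were followed in 4T1, a line of mouse cells from a triple negative mammary cancer. The group held 10 genes, taken by name: Ddx58, Ifih1, Dhx58, Mavs, Tlr3, Irf3, Tbk1 and Zbp1, with STING and cGAS under the symbols of the deposited tables, Tmem173 and Mb21d1. All 10 were found among 24677 genes, and all 10 passed the filter on low counts, as did 14513 genes in all. Tlr3 belongs to the group by its ligand but sits in endosomes, not in the cytosol. RNA-seq was done on 8 libraries in 4 groups of 2. Knockout cells (Tyro3_KO in the plots) were anti-PD1 resistant 4T1 cells in which the Tyro3 gene, whose product is a TAM receptor with tyrosine kinase activity, had been knocked out, and resistant cells were the anti-PD1 resistant control (R3 in the column names). Overexpressing cells (Tyro3_OE) were parental 4T1 cells with added Tyro3, and parental cells were their control. All 4 groups were cultured cells given no treatment, in DMEM with fetal bovine serum. The labels give neither the promoter of the added Tyro3 nor the number of clones behind the knockout and resistant cells, and they do not say whether replicates were separate cultures. The p-values therefore measure the spread between these libraries, which may be technical. Levels are CPM after TMM scaling, that is, reads relative to the library total multiplied by the TMM factor of that library. The scaled totals are thus not equal between libraries. Changes are on the log2 scale and carry a standard error (SE). They were tested with edgeR (quasi-likelihood F test), the p-values were adjusted by Benjamini and Hochberg's method over all 14513 genes, and a change was called at an adjusted p under 0.05. In cultured cells measured in bulk, fewer expressing cells and less RNA per cell cannot be told apart.

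Ddx58 encodes RIG-I and Ifih1 encodes MDA5, helicases that bind viral RNA in the cytosol, RIG-I at the ends of short double-stranded RNA and MDA5 along long double strands. Dhx58 encodes LGP2, a relative without the signalling domains, and Mavs encodes the mitochondrial adaptor on which RIG-I and MDA5 converge. Mb21d1 encodes cGAS, which makes the cyclic dinucleotide cGAMP when it binds DNA, and Tmem173 encodes STING, its receptor on the endoplasmic reticulum. Tlr3 recognises double-stranded RNA in endosomes, and Zbp1 binds nucleic acid in the Z form and can start necroptosis. The arms meet at the kinase Tbk1, which phosphorylates the factor Irf3 so that it enters the nucleus and switches on interferon genes. Ddx58, Ifih1, Dhx58, Tlr3 and Zbp1 are themselves known as interferon-induced genes in many cell types.

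Promoter sequences were searched for motifs that interferon regulatory factors are known to bind. RefSeq promoters (GRCm38.p6, 250 bases before to 50 after the start) were found for 7 of the 10 genes, Dhx58, Zbp1 and Tmem173 being the others. Both strands were searched for the interferon-stimulated response element (GAAA, any 2 bases, then GAAA) and the shorter interferon regulatory factor core AANNGAAA, which lies within every match to the longer motif. The 250 bases before the start are given for a pair of RNA sensors that were higher in overexpressing cells and for the DNA sensor, which was lower there. They are written in lower case, 5′ to 3′ along the gene, with any match to AANNGAAA in capitals; Ddx58 lies at chr4:40239826-40240075, Ifih1 at chr2:62646256-62646505 and Mb21d1 at chr9:78443238-78443487, all on the minus strand.
Ddx58: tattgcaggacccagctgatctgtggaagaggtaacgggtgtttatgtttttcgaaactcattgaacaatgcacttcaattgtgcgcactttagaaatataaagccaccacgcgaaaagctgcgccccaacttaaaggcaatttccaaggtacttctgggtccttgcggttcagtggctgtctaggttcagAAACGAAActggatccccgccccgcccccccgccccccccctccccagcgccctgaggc
Ifih1: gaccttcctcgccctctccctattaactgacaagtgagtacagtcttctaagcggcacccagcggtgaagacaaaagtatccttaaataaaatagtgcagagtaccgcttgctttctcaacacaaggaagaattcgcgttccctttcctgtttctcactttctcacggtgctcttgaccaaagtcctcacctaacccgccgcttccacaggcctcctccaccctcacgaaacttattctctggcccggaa
Mb21d1: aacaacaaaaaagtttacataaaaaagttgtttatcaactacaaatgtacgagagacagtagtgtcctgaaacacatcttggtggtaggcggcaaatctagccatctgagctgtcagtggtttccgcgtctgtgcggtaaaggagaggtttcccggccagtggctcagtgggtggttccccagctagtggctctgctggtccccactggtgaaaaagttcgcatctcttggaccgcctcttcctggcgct
The capitals in Ddx58 are AAACGAAA, beginning at position -59. Ddx58 also held GAAATCGAAA, read on the opposite strand, beginning at position 3 of the transcript, and Ifih1 held GAAACAGAAA beginning at position 33. In Tlr3 the core AAGTGAAA was found on the opposite strand at position -59 of the RefSeq start, and the annotation also places first exons of Tlr3 over that window. The longer element was thus in 2 of 7 promoters, against 3.44% of 32851 promoter windows of the same length, and the core was in 3 of 7, against 23.9%. Mb21d1, Mavs, Irf3 and Tbk1 had no match to either motif, and of these Mavs was called slightly higher in overexpressing cells. These are matches of letters, and binding was not measured.

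Tyro3 itself stood at 3.81 and 3.99 CPM in knockout cells against 20.7 and 21.2 CPM in resistant cells, and at 107 and 102.9 CPM in overexpressing cells against 25.7 and 24.4 CPM in parental cells, which follows the labels. The libraries held 18001482 to 27261282 counted reads. Knockout cells differed from their own background more widely than from parental cells: 72.7% of tested genes were called between knockout and resistant cells, and 36.3% between knockout and parental cells. Of the defining immune markers, Ptprc was at 0 to 0.133 CPM and Csf1r at 0.117 to 0.770 CPM over all libraries, and Cd3e was at 0 in 7 of 8. Only 3 of 14 matched immune markers passed the filter. Their list summed to 59.4 to 64.6 CPM in knockout, 28.1 to 31.7 in resistant, 41.4 to 44.0 in overexpressing and 59.6 to 65.2 in parental cells, mostly from Cd14 and Cd68. Stromal markers, led by Pdgfra and Pdgfrb, summed to 106 to 107 CPM in knockout, 176 to 190.4 in resistant, 206 to 211 in overexpressing and 97.5 to 97.9 in parental cells, with 4 of 8 matched markers tested. Epithelial markers, led by Krt8 and Krt18, summed to 782 to 795 CPM in knockout, 496 to 531 in resistant, 833 to 837 in overexpressing and 919 to 939 in parental cells, with 7 of 8 matched markers tested. Epcam was at 0.133 to 1.32 CPM. The part of these marker differences in the results on sensor genes was not tested.

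**Figure D1:**
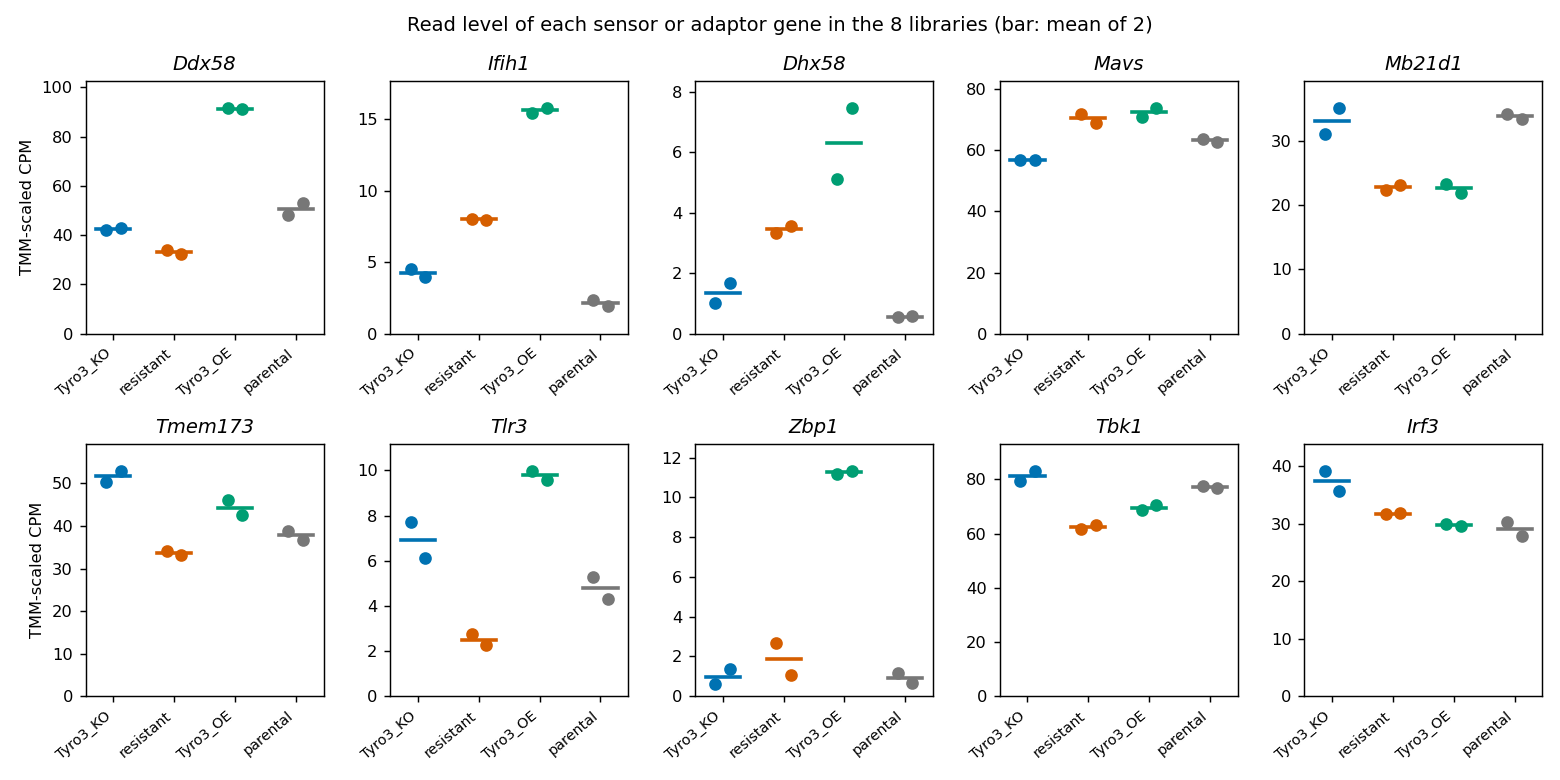
Each panel shows 1 sensor or adaptor gene, with its level in TMM-scaled CPM on the vertical axis from 0 and the groups on the horizontal axis; points are libraries and bars are means of 2. Ddx58, Ifih1, Dhx58, Tlr3 and Zbp1 are highest in overexpressing cells, where Ddx58 stands at 91.6 and 91.0 CPM, while Mb21d1 is lower in resistant and overexpressing cells than in knockout and parental cells.

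Across comparisons the genes did not move as a block. When Tyro3 was overexpressed in parental cells, 7 of the 10 genes were higher, 2 were lower and 1 was not called, while 66.2% of all tested genes were called, 32.5% higher and 33.7% lower. The median change was 0.54 for the 10 genes and 0.03 for all genes. With Tyro3 lost from resistant cells, 6 were higher and 4 lower, beside 72.7% of all genes called (37.1% higher and 35.6% lower), with a median of 0.29 for the 10 genes and -0.02 for all genes. Between resistant and parental cells, 4 were higher, 5 lower and 1 was not called, beside 71.2% of all genes called (35.1% higher and 36.1% lower), with medians of -0.02 and 0.03. The libraries of the groups did not overlap for 9 of the 10 genes in overexpressing against parental cells (82.5% of all tested genes), 9 in knockout against resistant cells (85.0%) and 9 in resistant against parental cells (84.2%). With most genes called or apart, these counts say little of the 10 genes, and the size and direction of each gene are given instead. The comparisons share libraries: parental cells serve as control for overexpressing and for resistant cells, and resistant cells enter a second time as the control of the knockout.

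**Figure D2:**
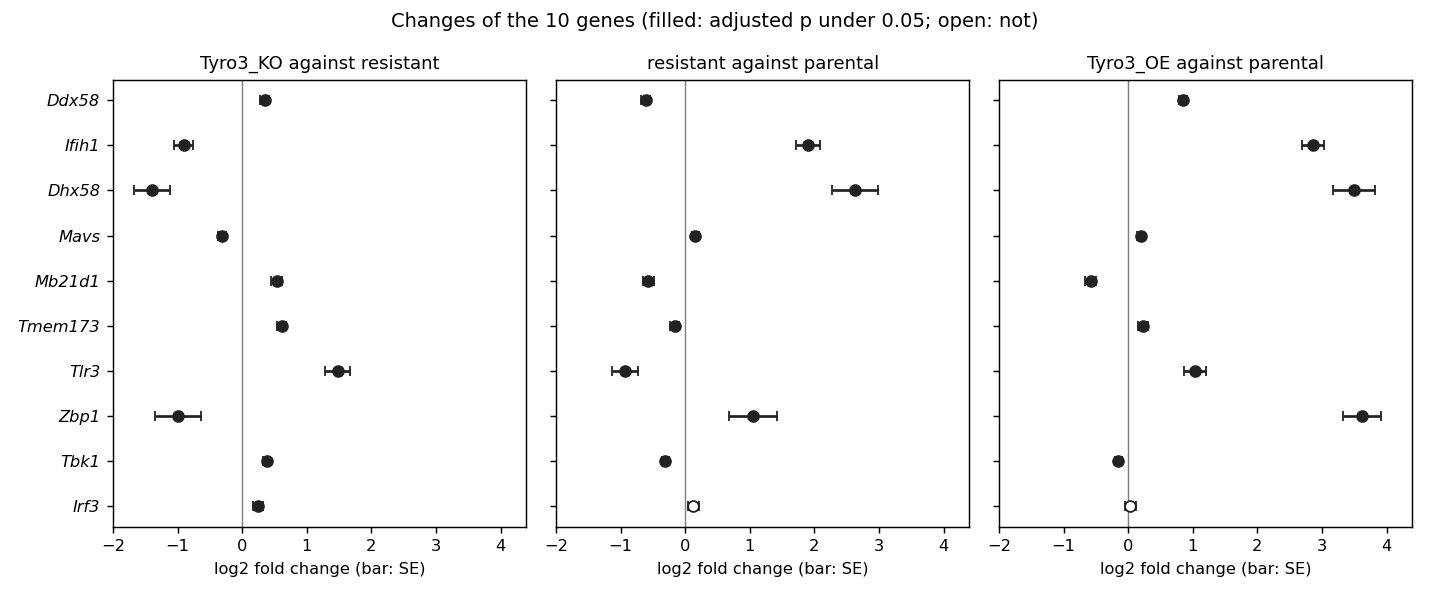
The 10 genes are listed down the page and their log2 fold changes are on the horizontal axis, in 1 panel each for knockout against resistant, resistant against parental and overexpressing against parental cells; bars are SE, and filled points are called at an adjusted p under 0.05. Ifih1, Dhx58 and Zbp1 lie far to the right in overexpressing cells, at 2.86, 3.50 and 3.62, and to the left in knockout cells, while Tlr3 lies to the right in both.

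Among the RNA helicase sensors, RIG-I transcript had another order of groups than MDA5 and LGP2 transcripts. Ddx58 (ENSMUSG00000040296, chromosome 4, 40203773 to 40239828 in GRCm38, protein coding) had 41.9 and 42.7 CPM in knockout cells against 34.1 and 32.2 CPM in resistant cells, and 91.6 and 91.0 CPM in overexpressing cells against 48.2 and 53.1 CPM in parental cells. No pair of groups overlapped, and the order from high to low was overexpressing, parental, knockout and resistant. Ddx58 rose by 0.85 in overexpressing cells (SE 0.06, adjusted p = 2.27e-16), a 1.80-fold change. It was also higher in knockout than in resistant cells, by 0.35 (SE 0.07, adjusted p = 1.50e-05). In resistant against parental cells it changed by -0.61 (SE 0.07, adjusted p = 8.16e-11).

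Ifih1 (ENSMUSG00000026896, chromosome 2, 62595798 to 62646255, protein coding) had 4.51 and 3.99 CPM in knockout cells against 8.05 and 7.98 CPM in resistant cells, and 15.5 and 15.8 CPM in overexpressing cells against 2.38 and 1.95 CPM in parental cells. Its order was overexpressing, resistant, knockout and parental, again without overlap, so resistant cells were the lowest for Ddx58 and the second highest for Ifih1. MDA5 transcript rose 7.25-fold in overexpressing cells (log2 fold change 2.86, SE 0.17, adjusted p = 1.55e-19). Resistant cells exceeded parental cells by 1.90 (SE 0.18, adjusted p = 1.67e-12), and knockout cells fell below resistant cells, with a change of -0.91 (SE 0.15, adjusted p = 1.29e-06). Knockout cells still stood above parental cells, by 0.99 (SE 0.20, adjusted p = 0.000116).

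Dhx58 (ENSMUSG00000017830, chromosome 11, 100694884 to 100704271, protein coding) followed the same order at lower levels. It had 1.01 and 1.67 CPM in knockout cells against 3.32 and 3.56 CPM in resistant cells, and 5.11 and 7.45 CPM in overexpressing cells against 0.534 and 0.565 CPM in parental cells, the last from 9 and 11 reads. The change was 3.50 in overexpressing cells (SE 0.32, adjusted p = 4.34e-13), 2.63 in resistant against parental cells (SE 0.35, adjusted p = 7.58e-09) and -1.39 in knockout against resistant cells (SE 0.28, adjusted p = 2.68e-05). Against parental cells the knockout was higher by 1.24 (SE 0.41, adjusted p = 0.0152), a call that was lost with no filter on low counts (adjusted p = 0.105), without knockout replicate 2 (0.87, adjusted p = 0.175), without parental replicate 1 (1.20, adjusted p = 0.0678) and without parental replicate 2 (1.28, adjusted p = 0.0661). An antisense gene, Dhx58os, overlaps 2637 bases of Dhx58 and had 0 to 5 reads per library; whether strand was used in counting is not given, so reads of the pair cannot be told apart.

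Within a library the balance between the helicases therefore differed between groups. Per kilobase of the gene length in the tables, Ddx58 stood 10.8 and 12.4 times as high as Ifih1 in knockout cells against 4.91 and 4.68 times in resistant cells, and 6.86 and 6.68 times in overexpressing cells against 23.5 and 31.5 times in parental cells. Ratios of Ifih1 to Dhx58 per kilobase ran from 0.849 to 1.79 over the 8 libraries. They were 1.79 and 0.959 in the knockout libraries, where Dhx58 had few reads. Of the summed level per kilobase of the 3 genes, Ddx58 made up 87.3% and 85.9% in knockout cells against 70.8% and 68.9% in resistant cells, and 79.0% and 75.4% in overexpressing cells against 93.8% and 94.8% in parental cells. RIG-I transcript was the largest part in all 8 libraries, with its highest shares in parental cells and its lowest in resistant cells. The sum itself was 6.80 and 7.06 CPM per kilobase in knockout, 6.84 and 6.64 in resistant, 16.4 and 17.1 in overexpressing and 7.29 and 7.95 in parental cells, so resistant cells differed from parental cells more in makeup than in total.

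**Figure D3:**
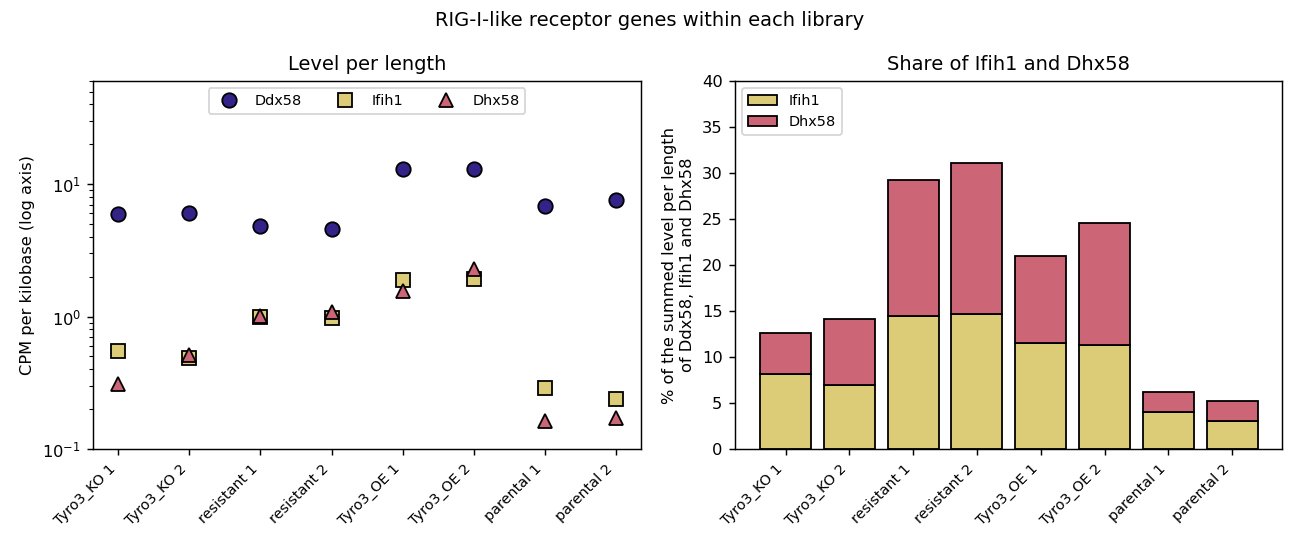
The left panel gives the level per length of the 3 helicase genes in each library (CPM per kilobase, log axis), and the right panel gives the share of Ifih1 and Dhx58 in the sum of the 3 as stacked bars from 0%. Ddx58 is above the other genes in all 8 libraries, and the remaining share is smallest in parental cells and largest in resistant cells, where Ddx58 makes up 70.8% and 68.9%.

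The adaptor of these sensors changed little. Mavs (ENSMUSG00000037523, chromosome 2, 131234063 to 131248025, protein coding) had 56.8 and 57.0 CPM in knockout cells against 71.9 and 69.2 CPM in resistant cells, and 71.0 and 73.9 CPM in overexpressing cells against 63.8 and 62.8 CPM in parental cells. Resistant and overexpressing cells overlapped and were above parental cells, and knockout cells were lowest. The changes were -0.31 in knockout against resistant cells (SE 0.06, adjusted p = 4.97e-06), 0.20 in overexpressing cells (SE 0.06, adjusted p = 0.00251) and 0.16 in resistant against parental cells (SE 0.06, adjusted p = 0.0144). The second of these was lost for Mavs without overexpressing replicate 2 (0.16, adjusted p = 0.0623), and the third without parental replicate 2 (adjusted p = 0.0948), without resistant replicate 1 (adjusted p = 0.118) and with no filter on low counts (adjusted p = 0.0760). Its step from highest to lowest library was 1.30-fold, against 8.09-fold for Ifih1.

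On the DNA-sensing arm, cGAS and STING transcripts took different courses. Mb21d1 (ENSMUSG00000032344, chromosome 9, 78430526 to 78443237, protein coding) had 31.1 and 35.2 CPM in knockout cells against 22.5 and 23.2 CPM in resistant cells, and 23.4 and 22.0 CPM in overexpressing cells against 34.3 and 33.5 CPM in parental cells. Resistant and overexpressing cells overlapped at the lower level, and knockout and parental cells overlapped at the higher one. cGAS transcript fell by 0.58 in overexpressing cells (SE 0.08, adjusted p = 6.28e-08) and was 0.53 higher in knockout than in resistant cells (SE 0.08, adjusted p = 2.62e-07). Resistant against parental cells gave -0.57 (SE 0.09, adjusted p = 9.84e-08). Knockout against parental cells gave -0.04 (SE 0.08, adjusted p = 0.769), and resistant against overexpressing cells gave 0.01 (SE 0.09, adjusted p = 0.931). A pseudogene, Gm8093, overlaps Mb21d1 by 280 bases on the other strand.

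Tmem173 (ENSMUSG00000024349, chromosome 18, 35733678 to 35740554, protein coding) was highest in knockout cells, at 50.3 and 53.0 CPM, against 34.1 and 33.3 CPM in resistant cells. It had 46.0 and 42.5 CPM in overexpressing cells against 38.8 and 36.8 CPM in parental cells. No groups overlapped, and both the loss and the gain of Tyro3 went with more STING transcript than in its control. The rise was 0.62 in knockout against resistant cells (SE 0.07, adjusted p = 1.35e-10) and 0.45 in knockout against parental cells (SE 0.07, adjusted p = 1.27e-06). In overexpressing cells it was 0.23 (SE 0.07, adjusted p = 0.00449), and that call for Tmem173 was lost without overexpressing replicate 1 (0.17, adjusted p = 0.101) or without parental replicate 2 (0.19, adjusted p = 0.0717). Resistant against parental cells gave -0.16 (SE 0.07, adjusted p = 0.0457), which did not pass with DESeq2 (adjusted p = 0.0931), with upper-quartile scaling (adjusted p = 0.976), with at least 50 reads asked in 2 libraries (adjusted p = 0.161), in the libraries of the comparison alone (adjusted p = 0.0834) or without parental replicate 1 (adjusted p = 0.189), resistant replicate 1 (adjusted p = 0.0680) or resistant replicate 2 (adjusted p = 0.149).

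The endosomal sensor Tlr3 (ENSMUSG00000031639, chromosome 8, 45395665 to 45411080, protein coding) had 7.73 and 6.11 CPM in knockout cells against 2.74 and 2.25 CPM in resistant cells, and 9.99 and 9.58 CPM in overexpressing cells against 5.29 and 4.31 CPM in parental cells. Resistant cells were lowest and overexpressing cells highest, with no overlap between any groups. Tlr3 rose by 1.48 in knockout cells (SE 0.19, adjusted p = 2.59e-09), a 2.79-fold change, and by 1.03 in overexpressing cells (SE 0.17, adjusted p = 5.84e-07). Resistant against parental cells gave -0.93 (SE 0.21, adjusted p = 0.000104). In knockout against parental cells it was 0.55 (SE 0.18, adjusted p = 0.0118), a Tlr3 call lost on leaving out parental replicate 2 (0.40, adjusted p = 0.159) or knockout replicate 1 (0.36, adjusted p = 0.239), with DESeq2 (adjusted p = 0.0594) and with no filter on low counts (adjusted p = 0.0648). The antisense gene Gm45542 overlaps it by 698 bases.

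Zbp1 (ENSMUSG00000027514, chromosome 2, 173206612 to 173218923, protein coding) was highest in overexpressing cells, where it had 11.2 and 11.3 CPM, from 278 and 283 reads, against 1.19 and 0.667 CPM in parental cells, from 20 and 13 reads. It had 0.622 and 1.36 CPM in knockout cells against 2.70 and 1.08 CPM in resistant cells, and these 2 groups overlapped each other and the parental cells. Zbp1 rose 12.3-fold in overexpressing cells (log2 fold change 3.62, SE 0.29, adjusted p = 4.50e-15), within 1 SE of the rise of Dhx58. Knockout against resistant cells gave -0.99 (SE 0.35, adjusted p = 0.0112), and resistant against parental cells gave 1.05 (SE 0.37, adjusted p = 0.0114). Both rest on resistant replicate 1: without it Zbp1 gave -0.18 (adjusted p = 0.729) and 0.24 (adjusted p = 0.651), and neither passed with DESeq2 (adjusted p = 0.186 and 0.156) or with no filter on low counts (adjusted p = 0.186 and 0.187). The first was also lost without knockout replicate 1 (-0.47, adjusted p = 0.280) and moved to -1.58 without knockout replicate 2, and the second was lost without parental replicate 2 (0.67, adjusted p = 0.182).

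Where the arms meet, the changes were small. Tbk1 (ENSMUSG00000020115, chromosome 10, 121546455 to 121586787, protein coding) had 79.3 and 83.2 CPM in knockout cells against 61.7 and 63.1 CPM in resistant cells, and 68.6 and 70.5 CPM in overexpressing cells against 77.7 and 76.7 CPM in parental cells. Groups did not overlap, with knockout cells highest and resistant cells lowest. The kinase was higher in knockout than in resistant cells by 0.38 (SE 0.05, adjusted p = 3.86e-08), lower in resistant than in parental cells (-0.31, SE 0.06, adjusted p = 4.35e-06) and lower in overexpressing than in parental cells (-0.15, SE 0.05, adjusted p = 0.0140). The last Tbk1 call was lost with upper-quartile scaling (-0.01, adjusted p = 0.878), with at least 50 reads asked in 2 libraries (adjusted p = 0.0749), on leaving out overexpressing replicate 1 (adjusted p = 0.118) or parental replicate 1 (adjusted p = 0.0545).

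Irf3 (ENSMUSG00000003184, chromosome 7, 44997648 to 45002848, protein coding) had 39.2 and 35.6 CPM in knockout cells against 31.7 and 31.8 CPM in resistant cells, and 29.9 and 29.5 CPM in overexpressing cells against 30.2 and 27.9 CPM in parental cells. Overexpressing and parental cells overlapped, and knockout cells were above every other library. The factor was higher in knockout than in resistant cells by 0.24 (SE 0.08, adjusted p = 0.00480), but the Irf3 call was lost with upper-quartile scaling (0.09, adjusted p = 0.275) and on leaving out knockout replicate 1 (0.18, adjusted p = 0.110). In overexpressing cells the change was 0.03 (SE 0.08, adjusted p = 0.726). Between resistant and parental cells it was 0.13 (SE 0.08, adjusted p = 0.151), which passed with upper-quartile scaling (0.29, adjusted p = 0.00168) and with at least 50 reads asked in 2 libraries (0.18, adjusted p = 0.0354). Irf3 shares 1065 bases with Bcl2l12 on the other strand, a gene with 104 to 212 reads per library, and the reads of the pair cannot be told apart here.

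To ask whether gain and loss of Tyro3 were mirror images, the difference between resistant and knockout cells was set against that between overexpressing and parental cells in 1 test. The value is resistant minus knockout, less overexpressing minus parental, and is 0 when both steps are equal. Of the 10 genes, 8 were called, all below 0, beside 46.7% of all tested genes called, 22.0% above 0 and 24.7% below. The median was -1.02 for the 10 genes and 0.003 for all genes. Zbp1 differed by -2.63 (SE 0.50, adjusted p = 2.02e-05), Tlr3 by -2.51 (SE 0.25, adjusted p = 1.63e-11), Dhx58 by -2.11 (SE 0.47, adjusted p = 0.000203) and Ifih1 by -1.95 (SE 0.24, adjusted p = 3.28e-09). For Ifih1 and Dhx58 both steps were upward with Tyro3 and the step in the parental background was the wider. For Ddx58 (-1.20, SE 0.09, adjusted p = 5.26e-15), Tlr3 and Tmem173 (-0.85, SE 0.10, adjusted p = 1.29e-09) the steps ran in opposite directions. Mb21d1 (0.05, SE 0.12, adjusted p = 0.777) and Mavs (0.11, SE 0.08, adjusted p = 0.255) were not called, which does not show that the steps are equal. Tbk1 (-0.23, SE 0.08, adjusted p = 0.0130) lost its call on leaving out overexpressing replicate 2 (adjusted p = 0.0707) or knockout replicate 2 (adjusted p = 0.0699). Irf3 (-0.27, SE 0.11, adjusted p = 0.0387) lost it with DESeq2 (adjusted p = 0.113) and on leaving out either overexpressing library, either resistant library, parental replicate 2 or knockout replicate 1, at adjusted p from 0.0738 to 0.210, and with no filter on low counts (adjusted p = 0.0687). The count of 8 was 6 to 8 when 1 library was left out.

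**Figure D4:**
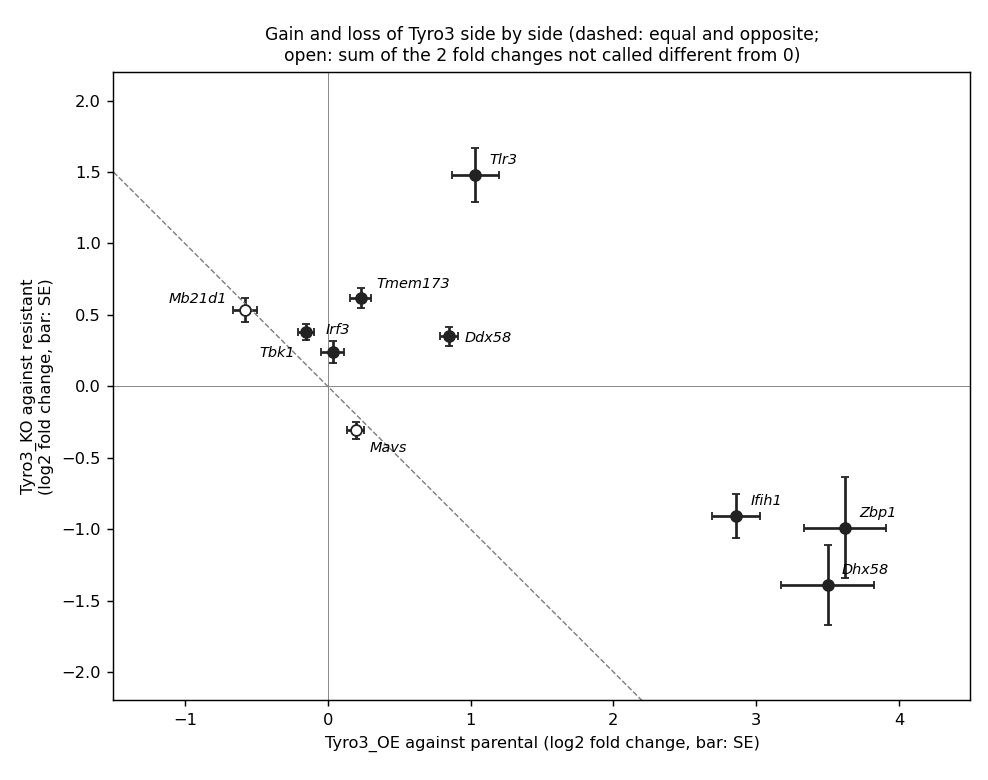
Log2 fold changes of overexpressing against parental cells (horizontal) are set against those of knockout against resistant cells (vertical), with SE as bars; the dashed line marks equal and opposite changes, and open points are genes whose sum of both changes was not called different from 0. Mb21d1 and Mavs lie near the line, at -0.58 and 0.53 and at 0.20 and -0.31, and Tlr3 lies well above it, at 1.03 and 1.48, as does Zbp1, at 3.62 and -0.99.

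The remaining pairs of groups place knockout and resistant cells against the other background. Knockout cells were higher than parental cells for 5 genes, lower for 2 and not called for 3, beside 36.3% of all tested genes called (18.1% higher and 18.3% lower), with medians of 0.22 for the 10 genes and 0.0003 for all genes. This count rests on single libraries, being 3 without parental replicate 2 and 4 with no filter on low counts. Irf3 was higher there by 0.37 (SE 0.08, adjusted p = 0.000193), Ddx58 was lower (-0.26, SE 0.07, adjusted p = 0.00133, and 0.0765 without parental replicate 2), and Zbp1 was not called (0.06, SE 0.43, adjusted p = 0.932). Resistant cells were lower than overexpressing cells for 7 genes and 3 were not called, beside 55.3% of all tested genes called (27.0% higher and 28.3% lower), with medians of -0.63 and 0.01. The groups did not overlap for 8 genes in knockout against parental cells (64.4% of all tested genes) and for 8 in resistant against overexpressing cells (76.4%). The gaps were -2.57 for Zbp1 (SE 0.24, adjusted p = 1.44e-12), -1.97 for Tlr3 (SE 0.18, adjusted p = 6.50e-13), -1.46 for Ddx58 (SE 0.06, adjusted p = 7.23e-24) and -0.96 for Ifih1 (SE 0.13, adjusted p = 1.37e-08). That of Dhx58, -0.87 (SE 0.23, adjusted p = 0.00103), was lost without overexpressing replicate 2 (adjusted p = 0.122).

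Per kilobase, the adaptors and the kinase stood above the sensors. Mavs, Tbk1 and Tmem173 held the first 3 places among the 10 genes in each group, at 14.6 to 22.4 CPM per kilobase as group means. In knockout cells Tmem173 was first (22.4 ± 0.81, SD, n = 2), above 81.6% of tested genes, and Zbp1 was last (0.281 ± 0.149), above 13.3%. In overexpressing cells Ddx58 took the fourth place (12.95 ± 0.05) and Zbp1 the seventh (3.19 ± 0.03, above 39.2% of tested genes). Dhx58, Ifih1 and Tlr3 stood at 1.92 ± 0.51, 1.91 ± 0.03 and 1.88 ± 0.06 in overexpressing cells and do not differ there beyond their spread.

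The genes that the sensors switch on were described from a list of 22 interferons and early outputs, of which 18 were found and 13 tested. All 13 were higher in overexpressing than in parental cells, with a median of 2.55 beside 0.03 for all genes, of which 32.5% were higher. Mx1 passed the filter on low counts only through overexpressing cells, with 69 and 57 reads there and at most 4 elsewhere. That Mx1 was higher there was thus set by the filter. In knockout against resistant cells 3 were higher, 7 lower and 3 not called (median -0.74; all genes -0.02, with 37.1% higher and 35.6% lower), and in resistant against parental cells 7 were higher, 2 lower and 4 not called (median 0.55; all genes 0.03, with 35.1% higher and 36.1% lower). Ifnb1, the interferon that Irf3 is best known to induce, had 2 reads in 1 overexpressing library and 0 in the other 7, under the floor of 3 reads (0.110 to 0.167 CPM before TMM scaling). Rsad2, which encodes the antiviral enzyme viperin, had 1.28 and 0.606 CPM in knockout cells against 6.28 and 5.28 CPM in resistant cells, and 15.1 and 14.9 CPM in overexpressing cells against 1.37 and 0.565 CPM in parental cells. Irf9, part of the factor that interferon receptors activate, had 14.1 and 13.8 CPM in knockout cells against 27.2 and 27.1 CPM in resistant cells, and 58.4 and 55.9 CPM in overexpressing cells against 13.2 and 11.4 CPM in parental cells. Both genes thus had the group order of Ifih1 at the top, overexpressing before resistant.

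Of 18 tested genes for other nucleic acid sensors and their effectors, 10 were higher and 7 lower in overexpressing against parental cells (median 1.29), 9 higher and 5 lower in knockout against resistant cells (median 0.56), and 6 higher and 8 lower in resistant against parental cells (median -0.41). Over all tested genes, 32.5% were higher and 33.7% lower in the first of these comparisons, 37.1% and 35.6% in the second, and 35.1% and 36.1% in the third, with medians of 0.03, -0.02 and 0.03. Oas2 and Aim2 passed the filter on low counts only through overexpressing cells, so that they were higher there was set by the filter. Eif2ak2, Tlr8, Tlr9 and Mnda, also on this list, were not found among the deposited genes. Oasl1, an oligoadenylate synthetase-like protein, rose by 2.67 in overexpressing cells (SE 0.12, adjusted p = 9.45e-24) and was lower in knockout than in resistant cells (-1.05, SE 0.11, adjusted p = 6.52e-12). Dhx9, an RNA helicase, had 490.4 and 485 CPM in knockout cells against 165 and 148 CPM in resistant cells, and 229 and 229 CPM in overexpressing cells against 452 and 480 CPM in parental cells. Hmgb1, a chromatin protein that aids sensing of nucleic acid, changed by -1.15 (SE 0.04, adjusted p = 9.60e-28) in overexpressing cells and by 1.01 (SE 0.04, adjusted p = 4.81e-26) in knockout cells against their controls.

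Of 19 tested genes that control RIG-I and MDA5, 9 were higher and 5 lower in overexpressing against parental cells (median 0.12), 5 higher and 10 lower in knockout against resistant cells (median -0.19), and 9 higher and 6 lower in resistant against parental cells (median 0.07). The shares of all genes called were 66.2%, 72.7% and 71.2%, and the medians of all genes 0.03, -0.02 and 0.03. The totals called in this list lie near the background. In the same order, 32.5% of all genes were higher and 33.7% lower, then 37.1% and 35.6%, then 35.1% and 36.1%. The splits of this list by direction rest on few genes, and their difference from all genes was not tested. Ppp1ca, a catalytic subunit of the phosphatase that keeps RIG-I and MDA5 ready by removing phosphate, had 360.5 and 355 CPM in knockout cells against 211 and 202 CPM in resistant cells, and 276 and 275 CPM in overexpressing cells against 489 and 468 CPM in parental cells. Nlrc5, a NOD-like receptor that binds RIG-I and drives MHC class I genes, rose by 1.18 in overexpressing cells (SE 0.08, adjusted p = 6.71e-18) and was lower in knockout than in resistant cells (-0.47, SE 0.08, adjusted p = 4.65e-07).

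Around cGAS and STING, 18 control genes were tested, with 8 higher and 7 lower in overexpressing against parental cells (median 0.07), 10 higher and 7 lower in knockout against resistant cells (median 0.18), and 7 higher and 7 lower in resistant against parental cells (median 0.01). Beside them stand 66.2%, 72.7% and 71.2% of all genes called, with all-gene medians of 0.03, -0.02 and 0.03. By direction, all genes were 32.5% higher and 33.7% lower, 37.1% and 35.6%, and 35.1% and 36.1%. Enpp1 passed the filter on low counts only through overexpressing cells, so that it was higher there was set by the filter. G3bp1, a stress granule protein that helps cGAS bind DNA, had 607 and 604 CPM in knockout cells against 269 and 262 CPM in resistant cells, and 386 and 375 CPM in overexpressing cells against 622 and 605 CPM in parental cells. Banf1, which keeps cGAS off chromosomal DNA, had 145 and 140.1 CPM in knockout cells against 102 and 109 CPM in resistant cells, and 98.1 and 97.1 CPM in overexpressing cells against 198 and 193 CPM in parental cells. Both genes were lower in resistant and overexpressing cells than in knockout and parental cells, as Mb21d1 was. Trim56, a ubiquitin ligase that aids both cGAS and STING, went the other way, with 67.5 and 67.5 CPM in knockout cells against 124 and 121 CPM in resistant cells, and 132 and 131 CPM in overexpressing cells against 69.8 and 77.6 CPM in parental cells. Zdhhc1, a STING-associated membrane protein, was lower in knockout than in resistant cells (-1.84, SE 0.09, adjusted p = 2.09e-22).

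Of 19 tested kinases, adaptors and factors after the sensors, 6 were higher and 6 lower in overexpressing against parental cells (median 0.05), 9 higher and 5 lower in knockout against resistant cells (median 0.24), and 3 higher and 11 lower in resistant against parental cells (median -0.27). Of all tested genes, 66.2%, 72.7% and 71.2% were called in these comparisons, with medians of 0.03, -0.02 and 0.03. The totals called in this list lie near the background. Split by direction, all genes were 32.5% higher and 33.7% lower, then 37.1% and 35.6%, then 35.1% and 36.1%. Splits by direction within the list, the widest being 3 higher and 11 lower in resistant against parental cells, rest on few genes. Their difference from all genes was not tested. Irf1, Irf7 and Ticam2, also on this list, were not found among the deposited genes. Traf6, a ubiquitin ligase used by Toll-like receptors and MAVS, was lower in knockout than in resistant cells (-0.85, SE 0.07, adjusted p = 3.86e-15). Its relative Traf3, which links MAVS to Tbk1, was instead higher there (0.48, SE 0.05, adjusted p = 6.50e-12). Ikbke, the kinase closest to Tbk1, had 37.0 and 35.1 CPM in knockout cells against 17.4 and 19.0 CPM in resistant cells, and 32.9 and 34.2 CPM in overexpressing cells against 32.2 and 27.4 CPM in parental cells.

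Of 15 tested genes that keep self nucleic acid from building up, 4 were higher and 8 lower in overexpressing against parental cells (median -0.26), 8 higher and 5 lower in knockout against resistant cells (median 0.27), and 4 higher and 9 lower in resistant against parental cells (median -0.22). Background shares over all genes were 32.5% higher and 33.7% lower, 37.1% and 35.6%, and 35.1% and 36.1% in the same order, around medians of 0.03, -0.02 and 0.03. Rnaseh2b, a subunit of the RNase that removes RNA from DNA, had 24.9 and 24.0 CPM in knockout cells against 7.96 and 8.57 CPM in resistant cells, and 14.1 and 15.6 CPM in overexpressing cells against 26.2 and 24.5 CPM in parental cells. Dnmt1, the maintenance DNA methyltransferase that helps silence endogenous retroviruses, was higher in knockout than in resistant cells by 1.59 (SE 0.04, adjusted p = 5.65e-33). Adar, which edits double-stranded RNA and so hides it from MDA5, rose by 0.65 in overexpressing cells (SE 0.05, adjusted p = 6.09e-15). Trex1, also on this list, was not found among the deposited genes.

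Among 7 tested partners of Zbp1 in necroptosis and apoptosis, 2 were higher and 5 lower in overexpressing against parental cells (median -0.25), 6 higher and 1 not called in knockout against resistant cells (median 0.51), and 5 lower and 2 not called in resistant against parental cells (median -0.48). For all tested genes the shares called were 66.2%, 72.7% and 71.2%, and the medians 0.03, -0.02 and 0.03. Those shares divide into 32.5% higher and 33.7% lower, 37.1% and 35.6%, and 35.1% and 36.1%. Mlkl, which opens the membrane in necroptosis, had 69.2 and 66.6 CPM in knockout cells against 45.3 and 45.7 CPM in resistant cells, and 53.1 and 55.3 CPM in overexpressing cells against 66.6 and 71.9 CPM in parental cells. Ripk1, a kinase of the same complexes, was higher in knockout than in resistant cells by 0.85 (SE 0.07, adjusted p = 1.81e-14). Ripk3, also on this list, was not found among the deposited genes.

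**Figure D5:**
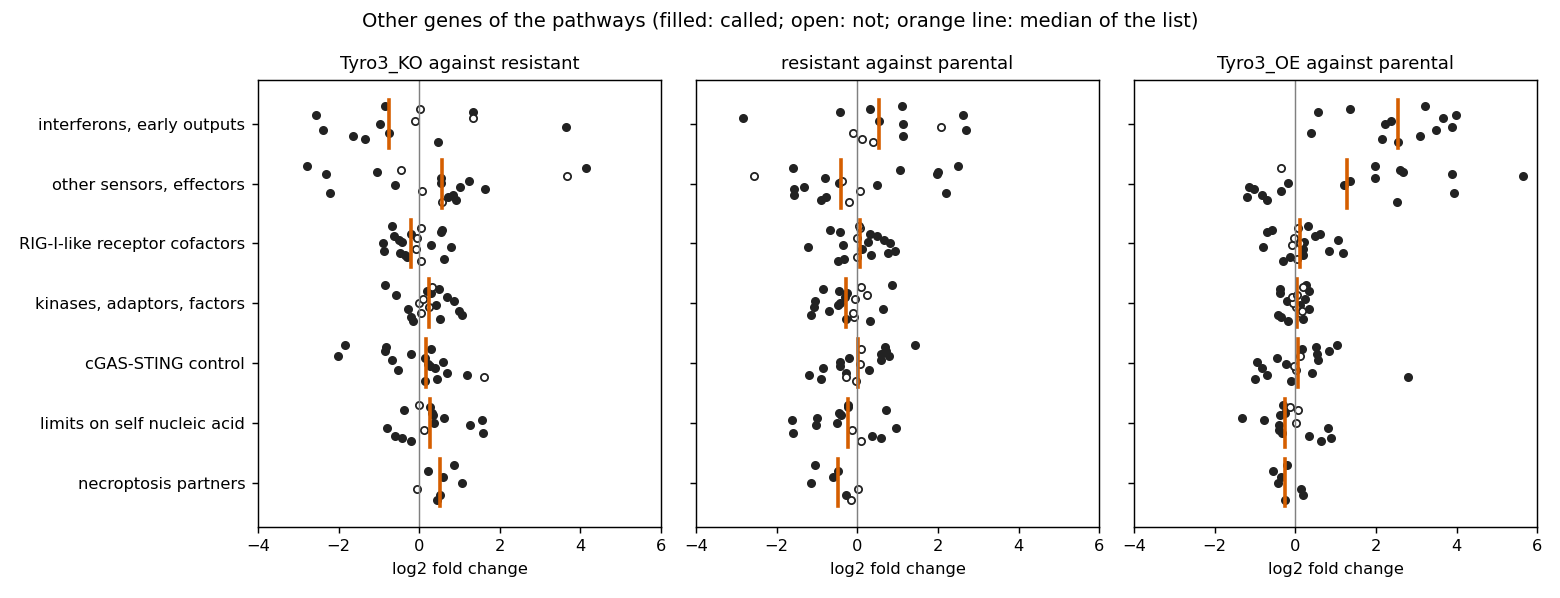
Each point is 1 tested gene of a pathway list (rows), placed by its log2 fold change in knockout against resistant, resistant against parental and overexpressing against parental cells (panels); filled points are called and orange lines are list medians. The early outputs lie to the right in overexpressing cells, with a median of 2.55, and the medians of the lists on kinases, on cGAS and STING control and on RIG-I-like receptor cofactors stay between 0.05 and 0.12 there.

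Genes with the most similar course over the 8 libraries were found by the root mean square difference of centred log2 CPM among 10910 genes. The search left out the sensor and adaptor genes themselves, so they were not compared with each other. Genes of low mean level and genes with predicted-gene names were left out too. Nuak2 was closest to Ddx58 (0.055, beside 0.54 for the spread of Ddx58 itself), and C1rl and then Oasl1 were closest to Ifih1 (0.14 and 0.18, beside 1.05). Zbp1 had Oas3 and Trim30a (0.47 and 0.48, beside 1.505), Dhx58 had Fam129a and Tap1 (0.30 and 0.31, beside 1.28), and Tlr3 had Neurl3 and Gprin1 (0.15 and 0.20, beside 0.73). Mb21d1 was matched by G3bp2 and Ddx24 (0.030 and 0.041, beside 0.28) and Tmem173 by Trip12 and Rps6kc1 (0.041 and 0.054, beside 0.24). Mavs had Fmnl3 (0.033, beside 0.14), Tbk1 had Ppp2ca (0.030, beside 0.15) and Irf3 had Tor1aip2 (0.047, beside 0.15). The 8 libraries are 4 groups of 2, so a match describes little more than an order of group means.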

How the data were processed

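Reads per gene were deposited by the authors as raw counts, per the file headers, in 3 tables of 1 comparison each, with gene lengths, log2 fold changes and adjusted p-values. The submitters' processing notes name CASAVA, STAR, DESeq2, GRCm38 and mm10 without roles or versions; which program counted reads, and with what strand setting, is not given in the sources used here. Log2 fold changes and adjusted p-values from the authors' deposited tables were used only for comparison, and 24 other per-sample columns were not used. Counts were joined by gene identifier into 24677 genes; a gene absent from a table was set to 0 (at most 1 read elsewhere), and 24 symbols turned into dates were restored. Tests were edgeR 4.0.16 in R 4.3.3 (TMM, filterByExpr, glmQLFit, glmQLFTest) on all 8 libraries with 1 mean per group. The SE is the log2 fold change divided by the square root of F. The spread between replicates was 3.51% (coefficient of variation; dispersion 0.00123) and replicates differed beyond Poisson noise (chi-square per degree of freedom from 2.02 to 5.68). Floors cover counting error only. The scripts were tested on simulated data.

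The 10 genes, the lists and the motifs were chosen with earlier results of these data known. Named genes were the 10, Tyro3, up to 3 called genes per list and comparison with the smallest adjusted p, of which the text gives part, and the nearest genes by pattern. DESeq2 1.42.0, RLE and upper-quartile scaling, other filters, the 4 libraries of a comparison alone, a replicate block and leaving out each library were tried. Sequences are RefSeq promoters of GRCm38.p6, and overlaps are from GENCODE of GRCm38.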

Additional observations from a re-analysis of the deposited data

Results flagged for a closer look

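For 8 of the 10 genes, beside 46.7% of all tested genes, edgeR's test of the difference itself called the step between higher and lower Tyro3 unequal in the 2 backgrounds (resistant minus knockout, less overexpressing minus parental, log2). The difference was -2.63 for Zbp1, -2.51 for Tlr3, -2.11 for Dhx58, -1.95 for Ifih1, -1.20 for Ddx58, -0.85 for Tmem173, -0.27 for Irf3 and -0.23 for Tbk1. The count was 6 to 8 when 1 library was left out and 7 with DESeq2 and with no filter. Irf3 lost its call with DESeq2 (adjusted p = 0.113), with no filter (adjusted p = 0.0687) and in 6 of 8 fits that left out 1 library, and Tbk1 in 2 of 8. Without resistant replicate 1 the value for Zbp1 was -3.44, and without knockout replicate 2 it was -2.03. The resistant and parental backgrounds differ in more than Tyro3, and what the difference rests on was not tested.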

How the results depend on the processing

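Of the members called, the count in knockout against parental cells moved most: it was 7, but 4 with no filter on low counts and 3 to 7 when 1 library was left out. The counts ran from 7 to 9 in overexpressing against parental, 8 to 10 in knockout against resistant, 6 to 9 in resistant against parental, 5 to 7 in resistant against overexpressing cells and 6 to 8 for the difference between backgrounds when 1 library was left out. The signs that turned belong to changes that were not called. Leaving out 1 library, Irf3 ranged from -0.029 (without parental replicate 2) to 0.084 in overexpressing against parental cells, and Zbp1 from -0.55 (without knockout replicate 2; -0.32 without parental replicate 2) to 0.58 in knockout against parental cells. Mb21d1 ranged from -0.12 to 0.054 (without knockout replicate 1) in knockout against parental cells, from -0.046 (the same) to 0.13 for the difference between backgrounds, and from -0.033 (without overexpressing replicate 2; -0.011 without resistant replicate 2) to 0.049 in resistant against overexpressing cells, where it gave -0.016 with no filter and -0.0025 in the libraries of the comparison alone. The cause was not tested. Upper-quartile scaling moved the median of all genes to 0.17 in overexpressing against parental, -0.17 in knockout against resistant and 0.19 in resistant against parental cells, and the share of calls that were higher to 60.3% (49.1% with TMM), 41.8% (51.1%) and 58.9% (49.3%), so small changes, such as 0.24 for Irf3 in knockout against resistant cells, depend on the scaling. Replicate numbers did not pair the libraries (correlation of deviations -0.00137 to 0.0342). With the replicate block the members called were 9, 10 and 9 in these 3 comparisons. Of 72 results, which include counts of genes called, 0 were labelled as changed, so calls of single members stayed as they were. Depth limits Dhx58 in knockout and parental cells and Zbp1 in knockout, resistant and parental cells, which had 9 to 33 and 13 to 61 reads a library.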

Other observations

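In the authors' deposited table, Zbp1 was not past 0.05 in knockout against resistant (adjusted p = 0.244) or resistant against parental cells (adjusted p = 0.209). The authors' deposited table also left Mavs (adjusted p = 0.0684), Tbk1 (0.0905) and Tmem173 (0.0983) above 0.05 in overexpressing against parental cells, where the changes were 0.20, -0.15 and 0.23 by edgeR. The same held there for Irf3 in knockout against resistant cells (adjusted p = 0.0520). It held too for Mavs (0.223) and Tmem173 (0.218) in resistant against parental cells. By edgeR these changes were called, at 0.24, 0.16 and -0.16. For Ifih1 and Dhx58 the authors' deposited table gave log2 fold changes of 2.85 and 3.50 in overexpressing against parental cells.

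Tlr7, another endosomal sensor of RNA, had 280 and 212 reads in knockout libraries against 9 and 18 in resistant libraries, and 26 and 46 in overexpressing libraries against 28 and 39 in parental libraries. Oas2, an oligoadenylate synthetase, had 46 and 37 reads in the overexpressing libraries and at most 2 in any other, and Mx1, an antiviral GTPase, had 69 and 57 reads there and at most 4 elsewhere. Il6 had 46 and 33 reads in knockout libraries against 1 and 5 in resistant libraries, and 10 and 14 in overexpressing libraries against 0 and 1 in parental libraries. These 4 genes were chosen after their values were seen.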
